A study of Mus musculus with 4 samples.

Results

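The GATA factors Gata1, Gata2 and Gata3 and the cofactor gene Zfpm1, which encodes Fog1, were followed in mouse fetal liver erythroid progenitors of Rcor1-/- embryos and controls. The 4 genes were taken by symbol from a table of 35939 gene rows, and each matched 1 row. The cells came from C57BL/6 embryos at stage E13.5 and had been sorted as CD71+ and TER119-. The control group pooled Rcor1+/+ and Rcor1+/- embryos, and the mutant group was Rcor1-/-. Each group had 2 libraries of mRNA sequencing, and each library pooled RNA of several fetal livers, so n = 2 counts pools and not embryos. How the control pools were divided between the 2 genotypes is not stated in the sources used here. Rcor1 encodes CoREST, the scaffold that joins the demethylase Kdm1a to histone deacetylases.

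GATA factors are zinc finger proteins that bind GATA sequences. In the blood system GATA2 acts in stem cells and early progenitors, GATA1 in erythroid cells, megakaryocytes, mast cells and eosinophils, and GATA3 in T and innate lymphoid cells. In the GATA switch of red cell development, GATA1 replaces GATA2 at shared sites, among them sites at the Gata2 gene itself, and Gata2 transcription is shut down. Fog1 does not bind DNA in this setting but is carried by GATA1, is needed for much of that replacement, and recruits the NuRD complex.

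The start regions of Gata1 and Gata2 are shown because these genes form the switch and moved in opposite directions. Sequences are the 250 bases before each start, 5′ to 3′ on the strand of the gene, from RefSeq on build GRCm38.p6, with each GATA (or its complement TATC) and each CACCC (or GGGTG), the core of sites that factors such as Klf1 bind, in capitals. Gata1 has 1 listed start (chrX:7967911-7968160, minus strand). Gata2 has 2 (chr6:88193641-88193890 and chr6:88198414-88198663, plus strand), which lie 4773 bases apart.
Gata1: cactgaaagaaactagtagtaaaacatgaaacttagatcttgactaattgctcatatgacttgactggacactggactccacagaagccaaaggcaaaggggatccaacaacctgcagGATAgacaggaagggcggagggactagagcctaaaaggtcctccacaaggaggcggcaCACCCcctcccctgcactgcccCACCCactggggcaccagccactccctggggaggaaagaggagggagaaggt
Gata2 first start: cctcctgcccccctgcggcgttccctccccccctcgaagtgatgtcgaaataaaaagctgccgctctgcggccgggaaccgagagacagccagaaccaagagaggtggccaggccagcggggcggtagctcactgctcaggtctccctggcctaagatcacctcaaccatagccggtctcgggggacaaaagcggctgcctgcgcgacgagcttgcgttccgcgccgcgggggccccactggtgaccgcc
Gata2 second start: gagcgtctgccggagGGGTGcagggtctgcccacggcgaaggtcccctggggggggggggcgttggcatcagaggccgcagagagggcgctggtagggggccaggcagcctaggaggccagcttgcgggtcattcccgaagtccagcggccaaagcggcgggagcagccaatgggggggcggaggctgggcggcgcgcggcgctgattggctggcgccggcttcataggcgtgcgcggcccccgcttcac
The Gata1 window held 1 GATA core and 2 CACCC motifs, the first Gata2 window held neither, and the second held 1 CACCC. Over both strands, 53.6% of all 32851 listed start regions of this length held a GATA core and 52.0% a CACCC. None of the 3 windows held the longer site AGATAA, or its variant that ends in G, or either of these with T as the first base. This site, which contains the GATA core, was present in 26.5% of all windows. Sites at these genes outside the 250 bases were not searched. The counts are per gene and do not show which Gata2 start was used.

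Library totals ran from 15053229 to 26892375 counts. Levels are given as CPM, counts per 1000000 counts of the library, after a TMM factor of 0.952 to 1.05 was applied to its total. Changes are log2 fold changes, mutant over control, fitted by edgeR (quasi-likelihood test) and printed with a standard error, and adjusted p is the Benjamini-Hochberg value over the 13140 genes tested, with a threshold of 0.05. By this threshold 57.5% of all genes tested passed, 28.3% higher and 29.2% lower in the mutant, and in 77.9% the libraries of the groups did not overlap. That split, 3723 genes higher and 3835 lower, became 5104 and 2558 with library totals alone. The targeted gene Rcor1 fell from 167 ± 10.5 to 78.3 ± 0.722 CPM (SD, n = 2), a log2 fold change of -1.09 ± 0.06 (adjusted p = 4.57e-11). Rcor1 counts at 0.469 of the control level thus remained in the Rcor1-/- group, and the controls themselves pooled Rcor1+/+ and Rcor1+/- embryos. All 6 erythroid progenitor markers were expressed in every library, and 5 of them fell while Kit did not pass. The transferrin receptor gene Tfrc, which encodes the sorted marker CD71, had a mean of 1248 CPM over the controls and of 881 CPM over the mutants. This fall did not pass without either mutant library (adjusted p = 0.0702 and 0.0677, in a range from 1.63e-49 to 0.0702). Liver, vessel and stroma markers (14 genes) made up 0.0786% of the counts of control library 1, 0.0784% of control library 2 and 0.123% of each mutant library, with 12 of 14 higher and none at 0, where 4 of the 14 (Krt8, Pdgfra, Lum and Postn) reached the low-count filter through the mutant libraries alone and could only be called as rises. Most of this share came from the liver genes Afp (means of 449 CPM over the controls and 660 over the mutants) and Alb (331 and 432.5). Vessel and stroma genes were far lower, and all of them rose past the threshold except Cdh5. Pecam1 went from 2.24 to 10.01 CPM, Tek from 0.646 to 5.49, Kdr from 1.505 to 3.498 and Col1a1 from 2.01 to 6.39. The scarcer Pdgfra, Lum and Postn rose too, though they could be called in no other direction. Cdh5 went from 1.84 to 1.92 CPM and did not pass. The part of these markers in the results below was not tested. In bulk RNA, fewer cells of a type and less RNA per cell cannot be told apart.

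In the Rcor1 mutant progenitors Gata1 and Zfpm1 each fell to about 0.68 of the control level, Gata2 rose 3.47-fold, and Gata3 was barely detected. The 3 tested genes all passed the threshold, as did 57.5% of all genes tested. In each of the 3 the groups did not overlap, which held for 77.9% of all genes tested. Gata1 and Gata2 thus moved in opposite directions within the same libraries, while Gata1 remained far above Gata2 in every one of them.

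Gata1 (ENSMUSG00000031162, on chromosome X), the central erythroid activator, was counted 13765 times in control library 1 and 11655 times in control library 2, against 9769 and 5725 times in the mutant libraries. These counts correspond to 537.9 and 534.1 CPM in controls and 368.8 and 364.0 CPM in mutants. Every mutant library lay below every control library, and the libraries within a group differed by a few CPM. The log2 fold change was -0.55 ± 0.04 (adjusted p = 7.32e-09), and 8.54% of all genes tested had a log2 fold change as low or lower.

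Zfpm1 (ENSMUSG00000049577, on chromosome 8), the multi-zinc-finger partner of GATA1, was counted 24418 and 18460 times in the controls, against 17369 and 9016 times in the mutants. Its levels were 954.2 and 845.9 CPM in controls and 655.8 and 573.2 CPM in mutants. The groups did not overlap, but the spread within them was wider than for Gata1, and the first library was the higher one in both groups. The log2 fold change was -0.55 ± 0.08 (adjusted p = 0.00189), equal in size to that of Gata1. GENCODE M21 places a second coding gene, Gm20388, over Zfpm1 on the same strand, and reads shared with it cannot be told apart.

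Gata2 (ENSMUSG00000015053, on chromosome 6), the factor of early progenitors, was counted 109 and 72 times in the controls, against 338 and 217 times in the mutants. Its levels were 4.26 and 3.30 CPM in controls and 12.8 and 13.8 CPM in mutants. Both mutant libraries lay above both control libraries, by more than the spread in either group. The log2 fold change was 1.79 ± 0.14 (adjusted p = 1.45e-08), a 3.47-fold rise, and 6.04% of all genes tested had a log2 fold change as high or higher.

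Gata3 (ENSMUSG00000015619, on chromosome 2), the lymphoid factor, was counted once in each control library, against 5 and 3 times in the mutants. It was too scarce for the filter and was not tested. The ratio of mutant to control, from 8 against 2 counts after scaling, was 4.49 with an exact 95% counting interval from 0.897 to 43.4, so a difference was not detectable at this depth. With no filter beyond 1 count, edgeR gave 2.00 ± 1.19 (adjusted p = 0.201). GENCODE M21 lists 3 genes over the Gata3 locus. Of these 9230102O04Rik, on the same strand, was counted 0 times in both controls, against 2 and 0 times in the mutants, and 4930412O13Rik, on the opposite strand, 1 and 0 times against 2 and 0 times. Reads shared with either cannot be told apart from those of Gata3.

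**Figure D1:**
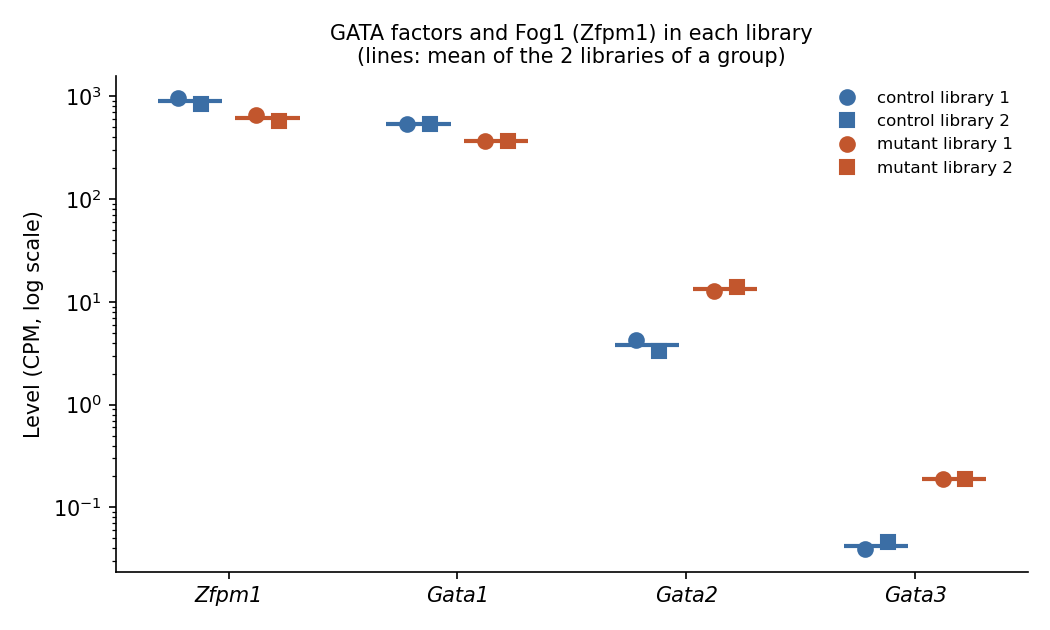
Level in CPM (log scale) of the 4 genes in each of the 4 libraries, with circles for library 1, squares for library 2 and lines for group means. Zfpm1 and Gata1 sit lower in both mutant libraries, Gata2 sits higher (12.8 and 13.8 against 4.26 and 3.30 CPM), and Gata3 stays below 0.2 CPM throughout.

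Levels of different genes were compared per kilobase of annotated exon (GENCODE M21, 1.902 kb for Gata1, 3.683 kb for Gata2, 3.215 kb for Gata3 and 3.39 kb for Zfpm1). The annotation that the authors used is not stated in the sources used here, and these lengths are approximate. Gata1 had 282 ± 1.42 CPM per kb in controls and 193 ± 1.81 in mutants (SD, n = 2). Zfpm1 had 265 ± 22.6 CPM per kb in controls and 181 ± 17.2 in mutants, and its range overlapped that of Gata1 in both groups. Gata2 had 1.03 ± 0.184 CPM per kb in controls and 3.61 ± 0.199 in mutants, and Gata3 had 0.0132 ± 0.00148 and 0.0590 ± 0.000429. The order was therefore Gata1 and Zfpm1 together at the top, then Gata2, then Gata3, in both groups.

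The balance of Gata2 to Gata1 in a library does not depend on how libraries are scaled. The ratio of Gata2 to Gata1 counts was 0.00792 and 0.00618 in the controls, against 0.0346 and 0.0379 in the mutants. Controls thus held about 144 Gata1 counts for each Gata2 count, and mutants about 27.6. The exact 95% counting intervals of the controls reached at most 0.00956, and those of the mutants began at 0.0310. The mutant ratio was 5.18-fold higher, a log2 difference of 2.37 with a pooled SD of 0.191 between replicate libraries. The exact two-sided permutation test gave p = 0.33, which is the smallest value that 2 against 2 libraries allow.

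Zfpm1 stood in nearly the same proportion to Gata1 in both groups. The ratio of Zfpm1 to Gata1 counts was 1.77 and 1.58 in the controls, against 1.78 and 1.58 in the mutants (1.679 ± 0.134 and 1.676 ± 0.144, SD, n = 2). The log2 difference of mutant minus control was -0.0025 against a pooled SD of 0.12 (exact two-sided permutation p = 1). With 1 library left out at a time it ran from -0.0900 to 0.0850, and a difference of that size cannot be resolved with these libraries. The spread lay between the first and second library of each group, whose counting intervals did not overlap (1.74 to 1.81 against 1.55 to 1.62 in controls, 1.73 to 1.82 against 1.52 to 1.63 in mutants).

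**Figure D2:**
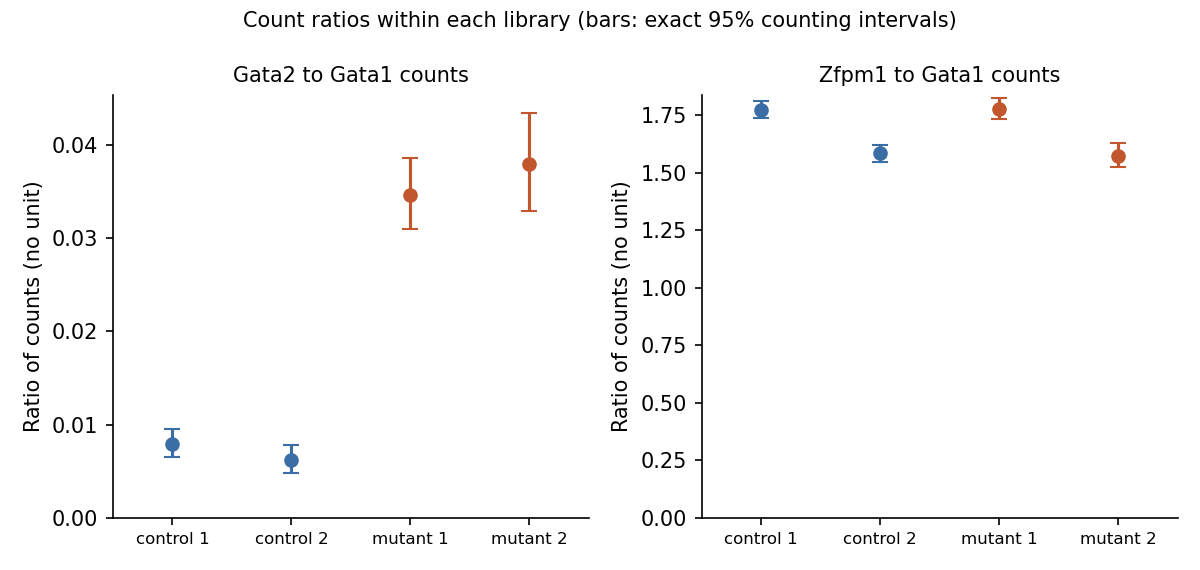
Ratio of Gata2 to Gata1 counts (left) and of Zfpm1 to Gata1 counts (right) in each library, with controls in blue, mutants in orange and bars for exact 95% counting intervals, which cover counting error only. The Gata2 ratio is 0.00792 and 0.00618 in controls and 0.0346 and 0.0379 in mutants, while the Zfpm1 ratio repeats 1.77 and 1.58 in controls as 1.78 and 1.58 in mutants.

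The authors' deposited table gave Gata1 a log2 fold change of -0.41 (adjusted p = 3.95e-08), Zfpm1 -0.41 (2.64e-08) and Gata2 1.93 (9.55e-45), and 55.3% of the 13234 genes in that table passed 0.05. When libraries were scaled by their totals, without TMM factors, the edgeR fit gave the same values to 2 decimals, -0.41, -0.41 and 1.93. That scaling moved the median of all genes tested from 0.01 to 0.15. Relative to that median, Gata1 was -0.56, Zfpm1 -0.56 and Gata2 1.79 under both scalings.

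The other GATA and Fog genes were scarce. Gata4, a factor of liver and heart, was counted 13 times in each control, against 33 and 12 times in the mutants, and passed (0.94 ± 0.37, adjusted p = 0.0415), but without mutant library 1 it was 0.47 (adjusted p = 0.498) and with DESeq2 0.88 (0.32), and its adjusted p over all settings ran from 0.0202 to 0.498. Gata6, which is also expressed in liver and endoderm, was counted 10 and 5 times in the controls, against 16 and 11 times in the mutants (1.01 ± 0.46, adjusted p = 0.0735), but passed with library totals alone (1.14, adjusted p = 0.0429). Trps1, an atypical GATA-type zinc finger repressor, was counted 9 and 6 times in the controls, against 45 and 26 times in the mutants, and rose by 2.39 ± 0.36 (adjusted p = 2.37e-05). Gata6 and Trps1 reached the low-count filter through the mutant libraries alone, so neither could have been called lower. Gata5 and the second Fog gene, Zfpm2, were not tested. Gata5 was counted 1 and 3 times in the controls and 0 times in both mutants, where a count of 0 allows up to 3, and Zfpm2 was counted 2 times in each control, against 8 and 2 times in the mutants.

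Among 16 genes listed as partners of GATA1, not all of them erythroid factors, 5 rose, 6 fell and 5 did not pass, with a median of -0.07. All 16 were tested. Over all genes tested 28.3% rose and 29.2% fell, and the list's counts lie near those shares. The largest rises were those of the ETS factor Fli1, from 2.08 ± 0.234 to 20.5 ± 3.83 CPM (3.32), and of Sfpi1, which encodes PU.1, a myeloid factor that binds GATA1 and opposes it, from 10.6 ± 2.54 to 82.7 ± 3.08 CPM (2.96). Gfi1b, a repressor that recruits CoREST, rose by 1.43. On DNA, GATA1 joins a complex of Tal1, Lmo2, Ldb1 and E proteins. Its bridging gene Lmo2 fell from 629 ± 6.01 to 480 ± 2.67 CPM (-0.39, adjusted p = 3.94e-07), and Tal1 (-0.24) and Ldb1 (-0.25) fell less. The E protein gene Tcf3 fell by 0.86, while Tcf12, also an E protein gene, did not pass (-0.04, adjusted p = 0.569). Klf1, which shares many erythroid sites with GATA1, fell by 0.73. The sign of the median depended on the scaling, since it was 0.003 under upper quartile scaling and 0.06 with library totals alone.

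Fog1 acts on chromatin through NuRD and CtBP. A list of 16 genes, all tested, held members of these complexes and Tacc3, whose product binds Fog1 but belongs to neither. Of these, 10 fell, 3 rose and 3 (Hdac1, Gatad2b and Tacc3) did not pass, against 29.2% lower and 28.3% higher over all genes tested. The list median was -0.29 (-0.15 with library totals alone). Like all lists here, it was chosen with earlier results of these data known. The metastasis-associated subunit gene Mta2 fell from 937 ± 70.5 to 638 ± 16.0 CPM (-0.55, adjusted p = 1.07e-07), Ctbp1 by 0.53 and the methyl-CpG binding subunit gene Mbd2 by 0.51. These 3 were named as the largest falls of the list. Mta1 (-0.48), Mbd3 (-0.46) and Gatad2a (-0.46) came next, without a clear gap. The remaining fallers moved less, such as Chd4 (-0.32) and Hdac2 (-0.26). The remodeller subunit gene Chd3 rose from 39.2 ± 0.0702 to 148 ± 2.71 CPM (1.92 ± 0.06, adjusted p = 3.76e-14). The other risers were Rbbp7 (0.25) and Ctbp2 (0.19). Ctbp2 had adjusted p = 0.0241 in the reported fit, with a range of 0.000514 to 0.259 over all settings.

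Of 27 erythroid genes that GATA1 is known to activate, 22 fell and 5 rose, and the list median was -0.61. The same fit called 29.2% of all genes lower and 28.3% higher, with a median of 0.01. The list was chosen with earlier results of these data known, so this is not an independent comparison. The haem synthesis gene Uros fell by 1.28, from 209 ± 1.49 to 85.9 ± 6.17 CPM. The erythroid ubiquitin ligase gene Trim10 fell by 1.19, and Rhd, which encodes a blood group membrane protein, changed by -1.10. The risers were Xpo7 (1.43), an exportin that takes part in nuclear condensation, Gfi1b (1.43), the survival gene Bcl2l1 (0.91), Spna1 (0.33) and Nfe2 (0.28). With library totals alone the median was -0.47.

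Of 16 progenitor genes that GATA2 is linked with and GATA1 is known to repress, 10 rose, 2 fell and 4 did not pass, with a median of 0.88, against 28.3% higher and 29.2% lower over all genes tested. The surface marker gene Cd34 rose from 1.77 ± 0.368 to 30.3 ± 0.799 CPM (4.08 ± 0.13, adjusted p = 1.42e-13), and Fli1 and Sfpi1, which were also among the partners, rose as given above. The fallers were Samd14 (-0.35), a gene with a GATA2-bound enhancer, and Ikzf1 (-0.23), which did not pass with library totals alone (-0.09, adjusted p = 0.0818, in a range from 2.38e-10 to 0.0818). Kit, a receptor gene that GATA1 turns down in maturing cells, went from 186 to 194 CPM and did not pass (0.06, adjusted p = 0.312), nor did Myb (0.07), Lyl1 (-0.08, with a sign that turned under other settings) and Cdk6 (0.24). With library totals alone 1 gene fell. The lists share genes, and this one too was chosen with earlier results of these data known. Of the 16, Erg alone reached the low-count filter only through the mutant libraries.

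**Figure D3:**
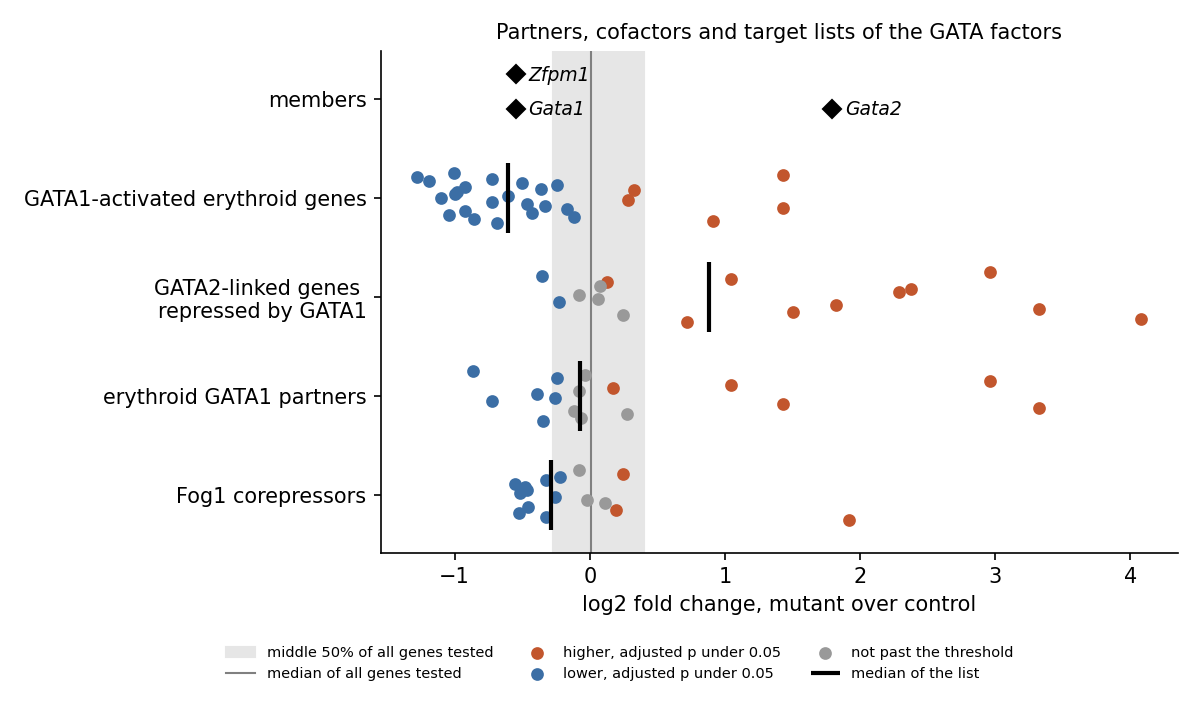
Log2 fold change of mutant over control for Gata1, Zfpm1 and Gata2 (diamonds) and for the tested genes of 4 lists (points, coloured by the edgeR call), with black bars for list medians, a grey band for the middle 50% of all genes tested and a grey line for their median. The medians are -0.61 for GATA1-activated genes, 0.88 for GATA2-linked genes, -0.07 for partners and -0.29 for Fog1 corepressors (Tacc3 included). The lists were chosen with earlier results of these data known.

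Cell types other than erythroid progenitors express GATA genes, and their markers were read beside them. Mast cell and basophil markers made up 0.000227% and 0.000267% of the control counts, against 0.00119% and 0.0012% of the mutant counts. Only 2 of 10 were tested, and both rose, where 28.3% of all genes tested did. The protease gene Cpa3 was counted 4 and 5 times in the controls, against 71 and 41 times in the mutants, and since it reached the filter through the mutants alone it could only be called as a rise. Hdc, which encodes the histamine-forming enzyme, rose by 1.89. The tryptase gene Tpsab1 and the chymase gene Mcpt4 were at 0 in all 4 libraries, and the IgE receptor gene Fcer1a had 0 in 3 libraries and 2 counts in the other. Ms4a2, the gene of another chain of that receptor, was counted 1 and 5 times in the controls, against 10 and 12 times in the mutants, while the protease gene Mcpt8 had 1 and 2 control counts and none in the mutants. Eosinophil markers, all 7 tested, went from 0.000855% and 0.000828% to 0.00424% and 0.00421% of counts, with 6 higher, among them the granule gene Prg2 (6.11 ± 0.209 to 21.8 ± 1.55 CPM), while the peroxidase gene Epx did not pass (0.28). Of these 7, Ccr3, Il5ra, Siglec5 and Alox15 reached the filter through the mutant libraries alone, so 4 of the 6 rises could have been called in no other direction.

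Megakaryocyte markers made up 0.0115% and 0.0111% of the control counts, against 0.0262% and 0.0254% of the mutant counts, with 8 of 10 higher (28.3% over all genes tested), led by the platelet factor gene Pf4 (12.7 ± 0.508 to 72.7 ± 3.26 CPM), and Vwf lower (-0.59). Gp6, one of the 8, reached the filter through the mutants alone. These cells express both Gata1 and Gata2, and the part of any of these cell types in the Gata2 rise was not tested. T and innate lymphoid markers, which bear on Gata3, made up 0.001% and 0.00105% of the control counts, against 0.00181% and 0.00179% of the mutant counts. Of these 14 genes 4 were tested, each with a control library at the filter level. Of the 4, 3 rose (Cd3g, Tcf7 and Zbtb16) and Lck did not pass (0.19). Il2ra and Klrb1c were at 0 in all libraries. The CD3 chain genes Cd3d and Cd3e had 0 counts in 3 libraries and at most 3 in the other. Cd3g rested on 10 and 12 control counts and 22 and 18 mutant counts, and lost its call in 4 of the other settings, where its adjusted p reached 0.262.

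Genes whose pattern over the 4 libraries was most like that of each factor were found by Euclidean distance in log2 CPM, centred on the mean of each gene, among 7788 candidates with at least 10 CPM in the higher group. Nearest to Gata1 were Elac2 (distance 0.00937), Cpsf1 (0.0108) and Rbm19 (0.0119), with log2 fold changes of -0.55, -0.56 and -0.55. Nearest to Zfpm1 were Ccdc86 (0.0219), Ino80b (0.0278) and Zfp628 (0.0315), with -0.57, -0.53 and -0.55, and in each of them the first library was the higher one in both groups. Nearest to Gata2 were the nuclear RNA gene Neat1 (0.076), Lgmn (0.142) and Tmcc3 (0.169), with rises of 1.87, 1.81 and 1.73. Neat1 had 4.06 and 3.07 CPM in controls and 12.7 and 13.8 CPM in mutants. Likeness over 4 libraries is a description of these libraries.

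**Figure D4:**
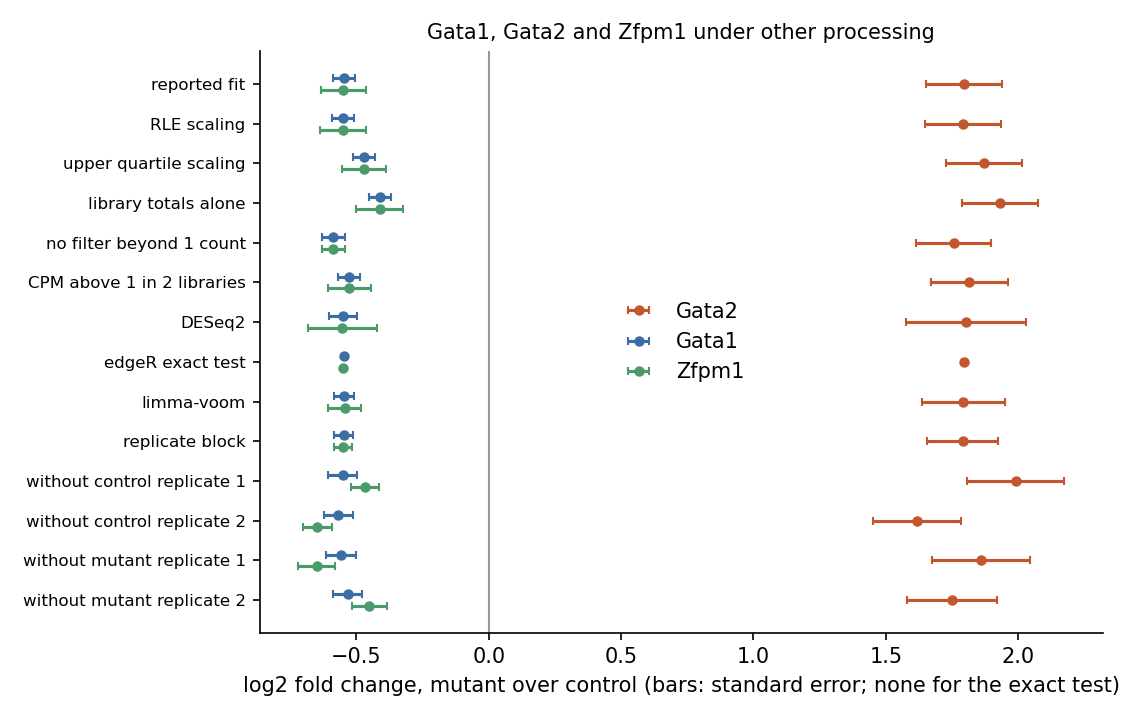
Log2 fold change of mutant over control for Gata2, Gata1 and Zfpm1 in the reported fit and under 13 other settings, with bars for standard errors. Gata2 stays between 1.62 and 1.99, Gata1 between -0.59 and -0.41, and Zfpm1 between -0.65 and -0.41.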

How the data were processed

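Per the labels, each library was made from pooled RNA of sorted CD71+, TER119- cells, with 2 biological replicates a group. The submitters' processing notes name the mm9 genome and the tools Bowtie, edgeR and FastQC. Versions, the counter, the annotation and the use of strand are not stated in the sources used here. The authors deposited whole-number counts per gene, and, per the file headers, a table of log2 fold changes with p-values. The WT columns were matched to the controls by their numbers, since the table holds no group but these and Mut.

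Of 35939 rows, 12 with no value in any library were dropped. The counts went into edgeR 4.0.16 (R 4.3.3, limma 3.58.1) with filterByExpr, TMM, estimateDisp, glmQLFit with robust and glmQLFTest, two-sided, over 13140 genes. The standard error was taken as the size of the log2 fold change divided by the root of its F statistic. The common dispersion corresponds to a coefficient of variation of 4.81%, so small changes pass. A gene reached the low-count filter in a library at 0.417 CPM of the library total, in at least 2 libraries. Replicates differed by more than counting noise (chi-square per gene 5.76 in controls and 3.67 in mutants over 10006 genes), and none was treated as a duplicate. Alternatives were other scalings, filters, tests (limma-voom, DESeq2 1.42.0 and the exact test of edgeR), a block for the replicate number, and leaving out 1 library at a time.

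The members and the 11 gene lists were chosen with earlier results of these data known. Named genes were the members, the other GATA and Fog genes, Rcor1, from each list at most 3 genes in each direction, by size of change, that passed and had at least 10 CPM (where none passed that limit, the most abundant), and the 3 nearest genes to each tested member. Genes named beyond these, such as those of a small count, were chosen after their values were seen. All 4 members matched the RefSeq start regions by symbol.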

Additional observations from a re-analysis of the deposited data

How the results depend on the processing

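Gata1, Gata2 and Zfpm1 kept their direction and stayed past the threshold under every scaling, filter, test and left-out library. Gata1 ran from -0.59 to -0.41, Gata2 from 1.62 to 1.99 and Zfpm1 from -0.65 to -0.41. Their highest adjusted p values were 1.32e-06, 9.88e-07 and 0.013, and the last came with library totals alone. The Gata2 to Gata1 log2 difference ran from 2.19 to 2.55. The number of genes called, 7558, ran from 5917 (DESeq2) to 8402 with the replicate block, and its split of 3723 higher and 3835 lower became 5104 and 2558 with library totals alone and 4423 and 3088 under upper quartile scaling. With the replicate number as a block, Gata1 was -0.55 ± 0.04, Gata2 1.79 ± 0.14 and Zfpm1 -0.55 ± 0.03, the last with a smaller error than the 0.08 without it. The deviations of same-numbered libraries correlated at 0.182 over 13140 genes, and the labels tie no numbers together, so the block was not used for the reported values. Among genes named beside them, Kit and Myb passed under upper quartile scaling (0.13 and 0.15) and with library totals alone (0.19 and 0.21). Cdk6 passed in 6 settings, at up to 0.41, and Gata6 with library totals alone (1.14). Lyl1 turned to 0.057 with library totals alone, was 0.034 without control library 1 and 0.006 without mutant library 2, and passed as a fall of -0.203 without control library 2. Epx ran from -0.059 to 0.472 over left-out libraries without passing. The cause was not tested. Gata3 rests on 8 mutant and 2 control counts, and depth limits what can be said of it.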
